A study of Saccharomyces cerevisiae with 42 samples.

Results

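The genes described here are 24 nuclear genes of Saccharomyces cerevisiae that carry a long intron and encode no cytoplasmic ribosomal protein. They were selected on annotation and on measured values together. A gene had to have more than 125 bases inside its boundaries that belong to no exon and at least 75 whole-gene counts in every library, and 29 named genes, such as ACT1, TUB1, UBC4, SAR1, YRA1 and LSM2, were left out by name. Of 7127 annotated genes, 151 nuclear protein genes had a non-exonic part over that limit and 64 of them encoded no ribosomal protein. Of these 64 genes, 45 passed the count minimum, 21 were among the names left out and 24 remained. Another 18 genes met the length condition and fell below the count minimum. They are not described further. The smallest non-exonic part inside the limit was that of SRC1 with 126 bases, and TAD3 and PAL2 with 124 bases each lay just outside. The lowest count in any library inside the limit was 99 for YBR090C, and YOR318C with 61 and MAY24 with 54 lay just outside. Because all 24 genes had to be detected everywhere, a gene that was silent at one time point could not be among them.

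The libraries came from BY4742, a haploid laboratory strain labelled Wt, grown in rich medium at 30°C. Cultures were diluted to low density and grown for 2 h before the 0 h harvest, and the later harvests followed after 2, 4 and 6 h of continued growth, with 24 libraries at 0 h and 6 at each later time point. The methods give the genotype as MATa his3Δ1 leu2Δ0 met15Δ0 ura3Δ0. In the libraries, MF(ALPHA)1, the gene of a pheromone made by alpha cells, had a median of 17773 scaled counts at 0 h, whereas MFA1, its counterpart of a cells, had 11.9. LYS2 had between 0 and 0.92 scaled counts and MET17, also called MET15, between 932 and 5273 over all libraries.

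The libraries held from 4339150 to 31908031 gene counts in total (median 12150379). HXK1, a hexokinase gene repressed by glucose, had a median of 1161 scaled counts at 0 h and of 33041 at 6 h. The libraries fell into 2 sets that cut across the time points and were found in the data. The slope of log2 CPM on log2 gene length over 4487 genes without an intron and outside the ribosomal proteins lay between -0.075 and 0.195 in 10 libraries, called flat here, and between 0.381 and 0.621 in the other 32, called steep. There were 7 flat libraries at 0 h, 1 at 2 h (replicate 1), 0 at 4 h and 2 at 6 h (replicates 2 and 4). The alignment names in the file headers carry 30C in only 6 of the 24 libraries labelled 0 h. The others carry 35C, 10C or Na200 in 6 libraries each. The labels of these libraries do not give these names, and the headers do not say what they stand for. All 24 were used as labelled, so every difference from 0 h rests on that label. The labels call the libraries biological replicates, and p-values measure the spread between them.

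Introns are removed from a transcript by the spliceosome, which recognises a 5′ splice site at the start of the intron, a branch point near its end and a 3′ splice site at the end. Most yeast genes have no intron, and the ones with long introns are best known as ribosomal protein genes. Outside that group, long introns occur in genes of unrelated function, and in one of them, HAC1, the intron is removed without the spliceosome: the endonuclease Ire1 cuts both ends during endoplasmic reticulum stress and the tRNA ligase Trl1 joins the exons.

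The 24 genes held 27 introns, since YOS1, EFM5 and VMA9 have 2 each. The intron ends were read from the RefSeq copy of the R64 genome, in which the start and end of all 24 genes match the annotation of the count files. The first 6 bases were GTATGT in 18 of the 27 introns (66.7%), against 203 of 279 annotated nuclear introns (72.8%). The branch point heptamer TACTAAC was found without a difference, on the strand of the gene, in 21 of 27 (77.8%) against 229 of 279 (82.1%), and the last 2 bases were AG in 26 of 27 (96.3%) against 277 of 279 (99.3%). The median distance from the heptamer to the intron end was 31 bases, beside 32 over all introns. The first intron began within 100 bases of the annotated start in 18 genes and farther in for the other 6, namely HAC1, SRC1, APE2, CQD1, YBR090C and YHL050C. Only a stretch before each intron end was searched, so a heptamer farther from the end was not seen. A matching heptamer is a description of the letters and not a mapped branch point.

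The intron ends are shown for the 3 genes with the lowest splice ratio at 0 h, which include the gene with the longest intron, and for HAC1, COI1 and ECM33, which were added after their values were seen as the next lowest ratios and as a gene with a high one. In the first line of each gene, capitals mark the first 6 bases of the intron. In the second line they mark the heptamer closest to TACTAAC and the last 3 bases of the intron. All runs are given 5′ to 3′ on the strand of the gene, with the last or first 8 bases belonging to the exon.
YBR090C, chromosome II, 426856 to 426881, minus strand: ttcgcaaaGTATGTaaggcgctgggt
YBR090C, chromosome II, 426509 to 426541, minus strand: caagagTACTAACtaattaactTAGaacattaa
YHL050C, chromosome VIII, 2653 to 2678, minus strand: cctttaggGCATGTtcataaaattcg
YHL050C, chromosome VIII, 1890 to 1939, minus strand: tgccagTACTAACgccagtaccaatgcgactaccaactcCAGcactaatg
GCR1, chromosome XVI, 412254 to 412279, plus strand: atggtatgGTATGAtcataacacgca
GCR1, chromosome XVI, 412950 to 413020, plus strand: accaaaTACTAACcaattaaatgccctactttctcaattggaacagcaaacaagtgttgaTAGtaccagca
HAC1, chromosome VI, 75832 to 75857, plus strand: taatccagCCGTGAttacgatgacca
HAC1, chromosome VI, 76052 to 76099, plus strand: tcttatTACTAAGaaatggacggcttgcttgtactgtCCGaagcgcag
COI1, chromosome IV, 1238807 to 1238832, minus strand: aatataggGTATGTgtaaaagaaata
COI1, chromosome IV, 1238623 to 1238787, minus strand: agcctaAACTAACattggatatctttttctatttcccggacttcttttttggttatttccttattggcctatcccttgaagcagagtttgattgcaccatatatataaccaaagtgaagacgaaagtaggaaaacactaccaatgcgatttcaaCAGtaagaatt
ECM33, chromosome II, 393173 to 393198, plus strand: tctagctgGTATGTacacattctcct
ECM33, chromosome II, 393475 to 393518, plus strand: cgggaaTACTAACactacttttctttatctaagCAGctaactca

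HAC1 had neither GT at the start nor AG at the end of its intron. YHL050C began with GC and GCR1 with GTATGA, whereas YBR090C and ECM33 had the common letters at all 3 places. COI1 had its nearest heptamer 144 bases before the intron end. Among the genes not shown, CQD1 began with GTTCGT, HFM1 with GTAGTA and SRC1 with GTGAGT. In PSP2, the closest heptamer in the stretch searched, TACATAT, had 3 differences from TACTAAC. The intron of PSP2 has 362 bases, and its earlier part was not searched.

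Levels are compared between genes per length, as CPM per kb of exon (exon counts scaled to the total gene counts of the library and to exon length), with the mean and SD over the 24 libraries at 0 h. Among the genes of the cell surface and the secretory route, ECM33, which encodes a GPI-anchored cell wall protein, had the highest level of all with 868 ± 149 (SD, n = 24). OST5, a subunit of the oligosaccharyltransferase that glycosylates proteins in the endoplasmic reticulum, had 210.2 ± 86.1, and YOS1, a protein of transport between endoplasmic reticulum and Golgi, 209 ± 41.2. NYV1, the vacuolar v-SNARE, had 144 ± 20.6, SEC27, the beta' subunit of the COPI vesicle coat, 129 ± 26.5, and BET1, a SNARE of transport to the Golgi, 75.4 ± 14.8. YSC84, an actin-binding protein of endocytic patches, had 32.4 ± 7.61.

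The 2 subunits of the vacuolar proton pump were close to the top, VMA10 (subunit G) with a level of 692 ± 275 (SD, n = 24) and VMA9 (subunit e) with 397 ± 141.2. The transcription factor genes differed, with 633 ± 116 for HAC1, the activator of the unfolded protein response, and 106 ± 40.9 for GCR1, the activator of glycolytic genes. Of the genes for RNA-binding proteins, HRB1, an export factor related to SR proteins, had 171 ± 12.8, STO1, the large subunit of the nuclear cap-binding complex, 105 ± 38.8, MPT5, a Pumilio-family repressor of mRNAs, 76.3 ± 30.4, and PSP2, an RGG-motif protein, 43.9 ± 5.43.

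The mitochondrial genes lay in the middle and at the lower end, with a level of 124 ± 21.9 (SD, n = 24) for MRPL44, a protein of the mitochondrial ribosome, 111 ± 25.2 for COI1, an inner membrane protein linked to respiratory complexes, and 16.5 ± 4.46 for CQD1, a protein of coenzyme Q distribution. EFM5, a methyltransferase of the translation factor eEF1A, had 107 ± 18.0, SRC1, a protein of the inner nuclear membrane, 69.9 ± 18.0 and APE2, an aminopeptidase, 68.0 ± 14.2. The lowest levels were those of YBR090C (11.1 ± 2.30), the meiotic DNA helicase gene HFM1 (8.03 ± 2.10) and YHL050C (6.40 ± 1.52). The levels of YBR090C and YHL050C use the full annotated exon length. Reads on 157 of the 369 exon bases of YBR090C, shared with another gene, were not counted. In YHL050C 84.8% of exon windows of 50 bases occur elsewhere, where reads were not counted. Both levels are lowered by this, and the places of both genes in the order are not settled. Most neighbours in this order did not differ beyond their spread. The gap to the next gene was larger than the larger of both SDs only below HAC1, VMA9, HRB1, APE2, PSP2, YSC84, CQD1 and YBR090C.

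**Figure D1:**
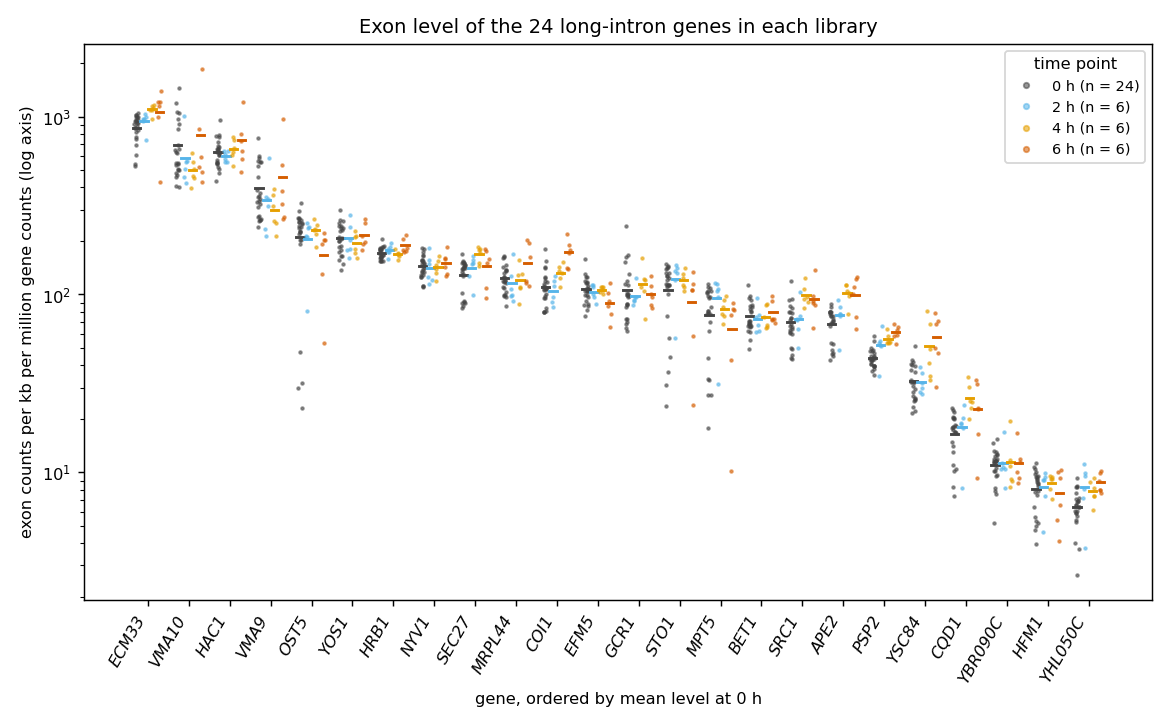
CPM per kb of exon (log axis) of the 24 genes in each library, ordered by mean level at 0 h, with points for libraries and short lines for means at 0 h (n = 24) and at 2, 4 and 6 h (n = 6 each). Per annotated exon length, levels ran from 868 for ECM33 to 6.40 for YHL050C at 0 h. OST5, STO1 and MPT5 had a group of libraries far below the others.

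The change over time was tested on whole-gene counts with edgeR's quasi-likelihood test and TMM scaling, with Benjamini-Hochberg adjustment over all 4789 genes that passed the count minimum. At 6 h, 5 of the 24 genes were higher than at 0 h (YSC84, COI1, APE2, PSP2 and SRC1) and 1 was lower (EFM5). Over all genes tested, 24.9% were higher and 19.6% lower at 6 h. At 4 h, 6 of the 24 were higher (CQD1, YSC84, APE2, SRC1, SEC27 and PSP2) and 0 lower, beside 17.7% higher and 17.4% lower over all genes. An unadjusted p under 0.05 in edgeR was found at 4 h in 9 of the 24, beside 2212 of all 4789 genes. At 2 h no call was made among the 24 genes, and 0.0835% of all genes were called. An unadjusted p under 0.05 in edgeR was found at 2 h in 1 of the 24, beside 472 of all 4789 genes. With scaling by library size alone, which put the all-gene median log2 change at 0.11 and 0.10 at 6 h and 4 h, all genes split into 1413 higher and 668 lower at 6 h, in place of 1193 and 941, and into 1011 and 539 at 4 h, in place of 849 and 835. The 24 genes then gave 6 higher and 0 lower at 6 h and 8 and 0 at 4 h. Against only the 6 libraries at 0 h with 30C in the header, 3 of the 24 were called at 6 h (COI1, PSP2 and YSC84), beside 26.5% of 4837 genes tested, and at 4 h COI1 alone, beside 5.44%. A lower count in these bulk cultures cannot be told apart between fewer cells with the transcript and less of it per cell.

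The values below are gene counts divided by the total of the library and multiplied by the mean total, with replicates 1 to 6 in order. YSC84 (YHR016C, chromosome VIII, 136881 to 138455, minus strand) had between 432 and 1011 scaled counts at 0 h with a median of 639, and 713, 561, 542, 785, 635 and 595 at 2 h. It had 1598, 816, 694, 1352, 979 and 655 at 4 h and 928, 1382, 1349.8, 993, 1567 and 602 at 6 h. Of the 6 libraries, 2 at 4 h and 3 at 6 h were above every library at 0 h, while the lowest at each time was below the 0 h median or close to it, so the groups overlapped. The log2 change was 0.55 (SE 0.18, adjusted p = 0.0138 in edgeR) at 4 h and 0.74 (SE 0.17, adjusted p = 0.000586) at 6 h, the largest among the 24 genes at 6 h. SE is a standard error derived as the absolute log2 change over the square root of the F statistic of the test. Without replicate 1 at 4 h the log2 change at 4 h was 0.39 (adjusted p = 0.119 in edgeR) and without replicate 4 at 4 h 0.44 (adjusted p = 0.0782), so the call at 4 h rested on both.

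COI1 (YDR381C-A, chromosome IV, 1238312 to 1238850, minus strand) had between 514 and 1309.8 scaled counts at 0 h with a median of 662, and 639, 681, 523, 839, 709 and 600.3 at 2 h. It had 984, 1039.8, 944, 861, 824 and 718 at 4 h and 1125, 918, 904, 1236, 1308 and 902 at 6 h. All libraries of 4 h and 6 h were above the 0 h median, and all were below the single highest library at 0 h. The log2 change at 6 h was 0.53 (SE 0.12, adjusted p = 0.00034 in edgeR), and that at 4 h, 0.26, did not pass (adjusted p = 0.0909). Against only the 6 libraries at 0 h with 30C in the header, COI1 was the gene called at 4 h too, with a log2 change of 0.50.

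APE2 (YKL157W, chromosome XI, 154991 to 158232, plus strand) had between 1695 and 3589.6 scaled counts at 0 h with a median of 2931, and 1958, 3047, 3159, 3745, 3482 and 3156 at 2 h. It had 4622, 4293, 3247, 4572, 4154 and 4009 at 4 h and 5036, 2555, 4529, 2976, 5094 and 4078 at 6 h. At 4 h 5 libraries and at 6 h 4 libraries were above every library at 0 h. Replicates 2 and 4 at 6 h, the flat libraries, lay at 2555 and 2976 beside a mean of 1923 in the 7 flat libraries at 0 h, while the steep libraries at 0 h had a mean of 3102. The log2 change was 0.50 (SE 0.11, adjusted p = 0.000615 in edgeR) at 4 h and 0.46 (SE 0.11, adjusted p = 0.000704) at 6 h. With the library set as a term in the fit the changes were 0.37 and 0.48.

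PSP2 (YML017W, chromosome XIII, 236588 to 238731, plus strand) had between 890.3 and 1571 scaled counts at 0 h with a median of 1114, and 873, 1367, 1386, 1804, 1323 and 1459 at 2 h. It had 1415, 1427, 1582, 1631, 1389 and 1387 at 4 h and 1688, 1477, 1715, 1315, 1806 and 1565 at 6 h. All 12 libraries at 4 h and 6 h were above the 0 h median, and 2 and 3 of them were above every library at 0 h. The log2 change was 0.28 (SE 0.08, adjusted p = 0.00851 in edgeR) at 4 h and 0.40 (SE 0.08, adjusted p = 7.63e-05) at 6 h. In the steep libraries alone, chosen after the data were seen, PSP2 was also called at 2 h with a log2 change of 0.27, as the only one of the 24 genes. In that fit 2.53% of all genes were called at 2 h.

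SRC1 (YML034W, chromosome XIII, 209525 to 212155, plus strand) had between 1516 and 4157 scaled counts at 0 h with a median of 2353, and 1746, 2517, 2233, 3610.3, 2652 and 2536 at 2 h. It had 4344, 3369, 2928, 3738, 3311 and 3184 at 4 h and 3453, 2249, 3073, 3185, 4782 and 3147 at 6 h. All 6 libraries at 4 h and 5 at 6 h were above the 0 h median, and 1 at each time was above every library at 0 h. The log2 change was 0.42 (SE 0.12, adjusted p = 0.00703 in edgeR) at 4 h and 0.36 (SE 0.12, adjusted p = 0.0155) at 6 h. Flat libraries at 0 h had a mean of 1783 and steep ones 2716, and no library at 4 h was flat. With the library set as a term the changes were 0.33 and 0.38, and both passed. Without replicate 5 at 6 h, the highest library, the change at 6 h was 0.24 (adjusted p = 0.135 in edgeR).

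CQD1 (YPL109C, chromosome XVI, 345264 to 347389, minus strand) had between 205 and 642 scaled counts at 0 h with a median of 487, and 225, 499, 518, 657, 556 and 524 at 2 h. It had 957, 639.6, 558, 834, 699 and 697 at 4 h and 866, 260.5, 630.4, 455, 916 and 627 at 6 h. At 4 h 4 of the 6 libraries were above every library at 0 h, and at 6 h the flat replicates 2 and 4 were below the 0 h median and the others above it. The log2 change was 0.61 (SE 0.16, adjusted p = 0.00413 in edgeR) at 4 h, the largest of the 24 genes at that time, and 0.36 at 6 h, which did not pass (adjusted p = 0.0695). With the library set as a term, the change at 6 h was 0.37 and passed (adjusted p = 0.00146 in edgeR).

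SEC27 (YGL137W, chromosome VII, 249869 to 252738, plus strand) had between 3135 and 6233 scaled counts at 0 h with a median of 5224, and 3699, 4754, 6087, 5679.7, 5820.2 and 5532 at 2 h. It had 6902, 5618, 5426, 6734, 6612 and 6334 at 4 h and 6581, 3550.5, 5599, 4066, 6728 and 5897 at 6 h. At 4 h 4 of the 6 libraries were above every library at 0 h. The flat libraries at 0 h had a mean of 3370.3 and the steep ones 5382, and 0 of the libraries at 4 h were flat. The log2 change was 0.30 at 4 h (SE 0.11, adjusted p = 0.0284 in edgeR), and 0.18 with the library set as a term (adjusted p = 0.029 in edgeR). Leaving out replicate 1, 4, 5 or 6 at 4 h gave log2 changes of 0.27, 0.27, 0.28 and 0.29, with adjusted p of 0.0816, 0.0848, 0.069 and 0.0522 in edgeR, so the call rested on each of these libraries.

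EFM5 (YGR001C, chromosome VII, 497133 to 498034, minus strand) had between 788 and 1657 scaled counts at 0 h with a median of 1099, and 1175, 1054, 1159, 1009, 1186 and 935 at 2 h. It had 1154, 1155, 1113, 1143, 1049 and 1074 at 4 h and 823, 683, 971, 1068, 898 and 1214 at 6 h. At 6 h 5 of the 6 libraries were below the 0 h median, 1 of them below every library at 0 h. The log2 change at 6 h was -0.33 (SE 0.10, adjusted p = 0.00448 in edgeR), and with scaling by library size alone it was -0.24 (adjusted p = 0.0555 in edgeR). Against the 6 libraries at 0 h with 30C in the header it was -0.21 (adjusted p = 0.221 in edgeR).

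**Figure D2:**
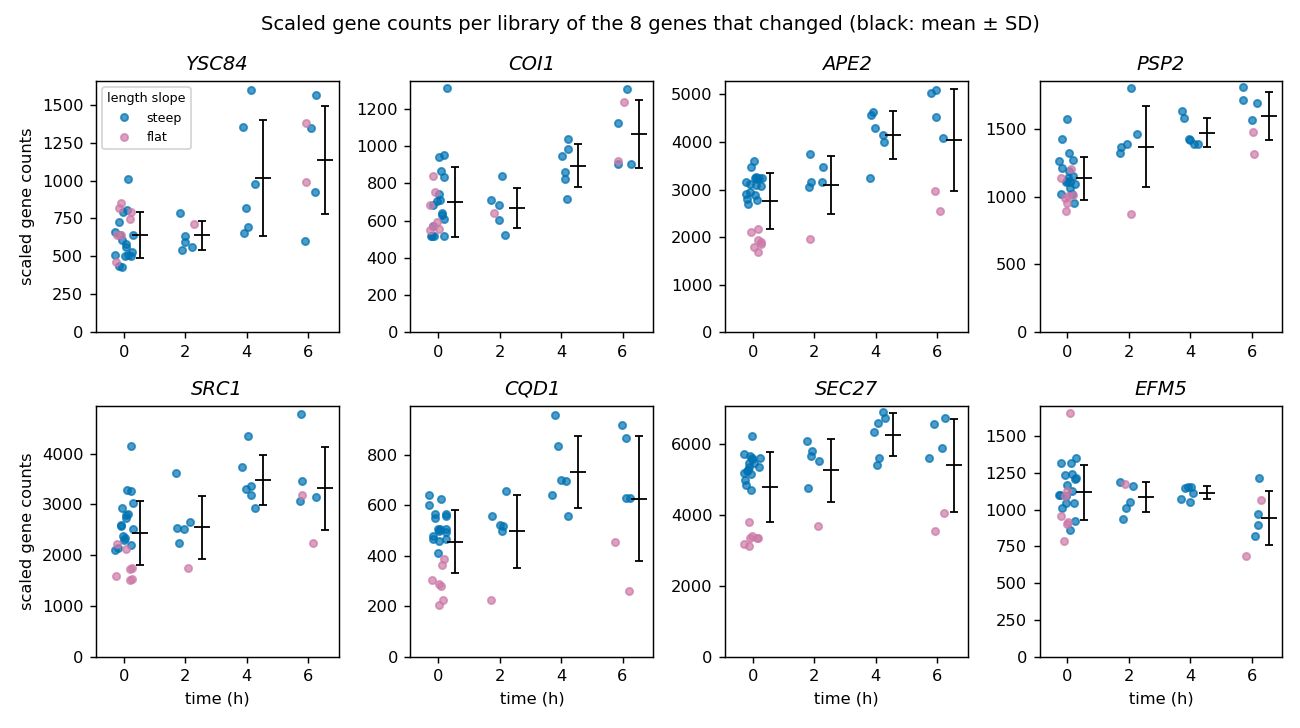
Scaled gene counts in each library at 0 h (n = 24) and at 2, 4 and 6 h (n = 6 each) for the 8 genes that changed at 4 h or 6 h, coloured by the length slope of the library, with the mean and SD in black. In APE2, CQD1, SEC27 and SRC1 the mean of the flat libraries at 0 h lies farthest below that of the steep ones. At 4 h, without flat libraries, APE2 reached 4149 ± 501 against 2758 ± 589.7 at 0 h.

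The remaining 16 genes passed at no time point. OST5 had the largest fall among them at 6 h with a log2 change of -0.41 (SE 0.32, adjusted p = 0.314 in edgeR), followed by MPT5 with -0.35 (SE 0.28, adjusted p = 0.321) and STO1 with -0.31 (SE 0.25, adjusted p = 0.311). These 3 genes had the lowest ratios of flat to steep libraries at 0 h, with means of 462 and 902 scaled counts for OST5, 1278 and 3410 for MPT5 and 1948 and 4680 for STO1. In the steep libraries alone, all 3 were lower at 6 h, with log2 changes of -0.35, -0.27 and -0.24. With the library set as a term, MPT5 passed at 6 h with -0.34 (adjusted p = 0.0437 in edgeR), and STO1 with -0.30 (adjusted p = 0.0505) and OST5 with -0.39 (adjusted p = 0.206) did not. Without replicate 2 at 6 h the changes of MPT5 and STO1 were both -0.13, and neither passed.

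VMA9 and VMA10 stood at the other end of that ratio, with 1843 and 5150.0 scaled counts in the flat libraries at 0 h and 1003 and 2652 in the steep ones. Their log2 changes at 4 h were -0.55 (SE 0.28, adjusted p = 0.116 in edgeR) and -0.60 (SE 0.29, adjusted p = 0.0985), and with the library set as a term -0.10 and -0.13. ECM33 had a log2 change of 0.25 at 4 h (adjusted p = 0.0592 in edgeR) and 0.19 at 6 h (adjusted p = 0.149). With the library set as a term, ECM33 passed at 6 h with 0.19 (adjusted p = 0.0468 in edgeR), and without replicate 2 at 6 h with 0.33 (adjusted p = 0.00181). YHL050C had 0.32 at 6 h (adjusted p = 0.0668 in edgeR) and 0.34 with the library set as a term (adjusted p = 0.0279), and its reads are limited by its place at a chromosome end, as described with its splice ratio. GCR1 had -0.19 (SE 0.18) and HAC1 0.18 (SE 0.16) at 6 h, with adjusted p of 0.404 and 0.364 in edgeR. The log2 changes of HRB1, NYV1, BET1, YOS1 and YBR090C at 6 h lay between -0.03 and 0.06, and those of MRPL44 and HFM1 were 0.20 and -0.15.

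**Figure D3:**
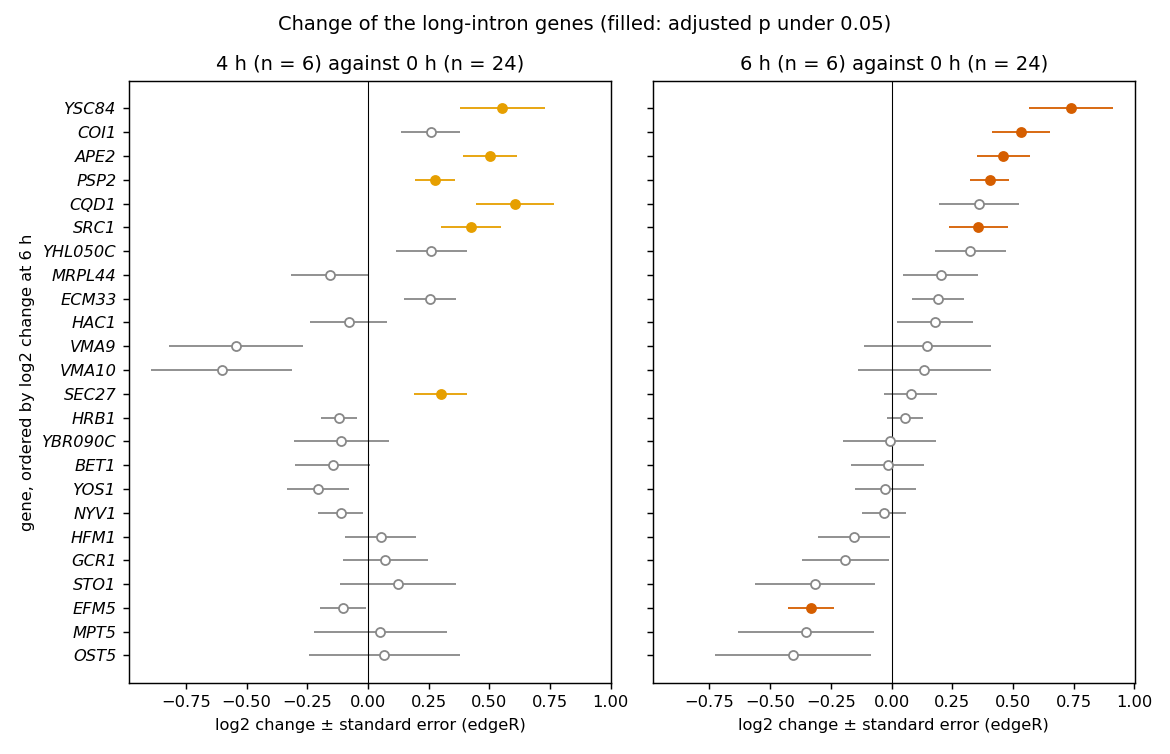
Log2 change from edgeR, with a standard error derived from the F statistic, for the 24 genes at 4 h (left) and 6 h (right), each with 6 libraries against 24 at 0 h. Genes are in the order of the change at 6 h, with filled points at an adjusted p under 0.05. The 6 filled points at 4 h are all above 0, and at 6 h 5 are above 0 and EFM5 lies at -0.33.

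No gene among the 24 had all 6 libraries of a later time point above all 24 libraries at 0 h, beside 3.45% of all tested genes at 6 h and 1.88% at 4 h. The median log2 change of the 24 genes was 0.11 at 6 h and 0.06 at 4 h, beside 0.02 and 0.00 over all tested genes. Without replicate 2 at 6 h the median of the 24 became -0.04. Of the 87 ribosomal protein genes with a long intron, 28 were lower and 0 higher at 6 h with a median of -0.36, and of the 89 other genes with a shorter intron 22 were lower and 14 higher with a median of -0.06. These comparisons share the 0 h libraries, and the differences between the groups of genes were not tested.

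The 24 genes were also read beside the other members of their pathways. YSC84 was 1 of 2 genes that were higher at 6 h among 12 tested genes of the actin patch, the other being ABP1, an actin-binding protein, with a log2 change of 0.38 (adjusted p = 0.0322 in edgeR), and 0 were lower. SEC27 was the only gene of 7 COPI subunits that passed at 4 h, and at 6 h the only call in the coat was SEC28, the epsilon subunit, with -0.34 (adjusted p = 0.0488 in edgeR). STO1 and HRB1 did not pass, while 4 of the 7 tested genes of cap binding and mRNA export were lower at 4 h and 3 at 6 h. These included MEX67, the main mRNA export receptor, with a log2 change of -0.49 at 6 h (adjusted p = 4.03e-07 in edgeR) and NPL3, an SR-like export factor, with -0.51 (adjusted p = 0.000689).

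GCR1 was read beside the regulators GCR2, RAP1 and TYE7 and genes of glycolysis and fermentation. Of these 16 genes, all tested, 4 were lower and 1 higher at 6 h. ENO1 and ENO2, which encode forms of the same glycolytic enzyme, moved in opposite directions, with log2 changes of 0.84 and -0.69 (adjusted p = 0.00397 and 0.00508 in edgeR). Around HAC1, 10 genes of the unfolded protein response were tested and 2 were lower at 6 h, KAR2, the main chaperone of the endoplasmic reticulum, with -0.36 (adjusted p = 0.00308 in edgeR) and ERO1, its thiol oxidase, with -0.76 (adjusted p = 0.00109). Of 15 tested V-ATPase genes, 0 were higher and 1 was lower at 6 h, VMA5 with -0.26 (adjusted p = 0.00808 in edgeR).

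Of 20 SNARE genes, 3 were higher and 3 lower at 6 h, and neither NYV1 nor BET1 was among them. The SNARE with the largest fall was YKT6, a prenylated SNARE, with a log2 change of -0.60 (adjusted p = 0.000509 in edgeR), and VAM7, a vacuolar SNARE that pairs with Nyv1, rose by 0.35 (adjusted p = 0.00618). In the cell wall families of ECM33 and the SUN genes, 6 were tested, 2 were higher and 1 lower at 6 h. NCA3 of the SUN family had the largest rise with 1.24 (adjusted p = 2.11e-05 in edgeR), and ECM33 itself did not pass. The calls in these lists are read against the 24.9% and 19.6% of all genes given above, and no list was tested as a whole.

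The splice ratio compares intron and exon reads of a gene within a library. Intron reads were the whole-gene counts minus the exon counts, and the ratio was 1 minus intron reads per intron base over exon reads per exon base, limited to the range from 0 to 1. A value near 1 stands for few reads inside the intron. A read that touches an exon counts as an exon read, so only reads wholly inside an intron lower the ratio, and shorter introns can hold fewer of them.

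At 0 h the mean splice ratio was above 0.9 in 13 of the 24 genes and below 0.5 in 5, with a median of 0.912. The median was 0.970 in the 87 ribosomal protein genes with a long intron, of which 79 were above 0.9 and 1 below 0.5, and 0.960 in the 89 other genes with a shorter intron, of which 77 were above 0.9 and 0 below 0.5. The 5 low genes were YBR090C and YHL050C with 0, GCR1 with 0.293 ± 0.203 (SD, n = 24), HAC1 with 0.397 ± 0.128 and COI1 with 0.439 ± 0.240. The 0 of YHL050C rests on annotated lengths that are mostly repeated elsewhere, as given below. The 13 genes above 0.9 include MPT5, whose intron reads are incomplete. Its ratio was 0.834 over the intron bases free of another gene, as also given below. STO1 (0.790 ± 0.0723), PSP2 (0.803 ± 0.105), HRB1 (0.810 ± 0.0869), APE2 (0.861 ± 0.0678), CQD1 (0.889 ± 0.0863) and MRPL44 (0.899 ± 0.0325) followed. The others lay between YSC84 with 0.907 ± 0.0476 and HFM1 with 0.994 ± 0.0212.

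The middle of that upper range held NYV1 (0.917), BET1 (0.919), MPT5 (0.924), SRC1 (0.927), VMA10 (0.955), SEC27 (0.960), ECM33 (0.963), EFM5 (0.967), OST5 (0.973), YOS1 (0.974) and VMA9 (0.975) as mean splice ratios at 0 h. Intron reads set the precision. The median number of intron reads in a library was 0 for HFM1 and 3 for CQD1, where even coverage of exons and introns would have given 15.1 and 32.0, so single reads move these ratios. GCR1 had 682 intron reads beside 1011 for even coverage, HAC1 1190.5 beside 1906 and COI1 164.5 beside 276. Even coverage takes no account of reads that touch an exon, which count as exon reads. An unspliced transcript would therefore also give fewer intron reads than these numbers. Across the 24 genes, longer introns went with lower ratios (Pearson r = -0.609 and Spearman rho = -0.516 across genes, n = 24), and without YHL050C and YBR090C r was -0.485. The genes share their libraries and are not independent replicates. Shorter introns also hold fewer reads that touch no exon, which raises their ratios. MPT5 entered with 0.924, which lacks the intron reads shared with another gene. The correlation is therefore only a description.

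GCR1 (YPL075W, chromosome XVI, 412254 to 415362, plus strand) has an intron of 751 bases that begins 8 bases into the gene. At 0 h its splice ratio lay between 0 and 0.748 (median 0.241). Replicates 1 to 6 had 0.604, 0.291, 0.19, 0.186, 0.219 and 0.25 at 2 h. The values at 4 h were 0.153, 0.2, 0.17, 0.19, 0.146 and 0.182, followed by 0.208, 0.966, 0.262, 0.562, 0.171 and 0.282 at 6 h. The 3 high values at 2 h and 6 h were those of the flat libraries. In replicate 2 at 6 h only 37 intron reads were counted, against 429 to 2189 in the other libraries at 6 h. At 0 h the flat libraries had a mean of 0.545 (range 0.267 to 0.748) and the steep ones 0.189 (range 0 to 0.337), so the sets overlapped only at their edges. The difference from 0 h at 6 h was 0.116 (p = 0.275, two-sided exact permutation test), and 0.101 within the sets (p = 0.119, exact permutation). Without replicate 2 at 6 h it was 0.00402. Its gene counts had a median of 4084 at 0 h and means of 4772 at 4 h and 3967 at 6 h, inside the 0 h range of 2481 to 9589.6.

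YBR090C (chromosome II, 426333 to 427058, minus strand), a gene without a described function, has an intron of 357 bases. Its intron carried more reads per base than its exons in all 42 libraries. The ratio of intron to exon density was 4.75 ± 1.17 (SD, n = 24) at 0 h, and in replicates 1 to 6 it was 5.29, 7.19, 4.77, 3.52, 3.4 and 5.15 at 2 h. The values at 4 h were 5.04, 6.18, 4.49, 3.89, 4.74 and 3.71, followed by 3.74, 7.7, 4.15, 4.28, 5.84 and 4.43 at 6 h. Of its 369 exon bases, 157 are shared with NHP6B, a gene of a chromatin protein on the same strand, and reads that overlap both genes were not counted for either. With 212 exon bases, those outside the annotated NHP6B, the density ratio at 0 h was 2.73 ± 0.672 and the splice ratio 0. This takes out only the annotated overlap. NHP6B spans 426190 to 426489, and the intron spans 426517 to 426873. Reads on exon bases between them that also touch NHP6B were not counted, so fewer than 212 bases were fully countable. Reads of NHP6B transcripts beyond its annotated ends would count for YBR090C, which was not tested. The intron ends of YBR090C printed above hold the common letters at all 3 places.

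YHL050C (chromosome VIII, 445 to 3311, minus strand), at the left end of its chromosome, has the longest intron of the 24 genes with 773 bases. Its intron to exon density ratio was 1.67 ± 0.411 (SD, n = 24) at 0 h. In replicates 1 to 6 it was 1.42, 1.36, 1.69, 1.06, 1.77 and 1.59 at 2 h. The values at 4 h were 2.22, 2.25, 2.19, 1.54, 1.73 and 1.14, followed by 1.68, 0.995, 1.37, 1.31, 1.82 and 1.78 at 6 h. Only replicate 2 at 6 h, a flat library, lay under 1. Of all windows of 50 bases in its exons, 84.8% occur elsewhere in the genome without a difference, and 71.8% of those in its intron, where reads that map to several places were not counted. In the exons and introns of the other 23 genes this share was 0%. The values of YHL050C therefore rest on the unique stretches of exon and intron, whose lengths differ from the annotated ones. A larger share of the exons than of the intron is repeated, so the annotated lengths raise the density ratio. A ratio above 1 therefore does not show more reads per countable base in the intron than in the exons.

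HAC1 (YFL031W, chromosome VI, 75179 to 76147, plus strand) has an intron of 252 bases that begins 661 bases into the gene. Its splice ratio at 0 h ranged from 0.178 to 0.659, and in replicates 1 to 6 it was 0.692, 0.359, 0.358, 0.422, 0.436 and 0.32 at 2 h. The values at 4 h were 0.407, 0.363, 0.426, 0.503, 0.528 and 0.443, followed by 0.427, 0.154, 0.449, 0.633, 0.388 and 0.375 at 6 h. The groups overlapped at every time. In contrast to GCR1, the flat replicate 2 at 6 h was the lowest library at that time and the flat replicate 4 the highest. The difference from 0 h at 4 h was 0.0482 (p = 0.381, exact permutation test), and within the sets 0.0998 (p = 0.00877 unadjusted, 0.244 adjusted over the 223 intron genes, exact permutation).

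COI1 has an intron of 194 bases that begins 26 bases into the gene. Its splice ratio at 0 h ranged from 0.0982 to 0.905, and in replicates 1 to 6 it was 0.776, 0.16, 0.503, 0.313, 0.411 and 0.334 at 2 h. The values at 4 h were 0.219, 0.239, 0.191, 0.375, 0.304 and 0.372, followed by 0.343, 0.877, 0.4, 0.688, 0.21 and 0.374 at 6 h. The 3 flat libraries of the later times were again the highest. At 0 h the mean was 0.739 in the flat libraries (range 0.347 to 0.905) and 0.316 in the steep ones (range 0.0982 to 0.479). The mean at 4 h was 0.156 below that at 0 h over all libraries (p = 0.126, exact permutation test) and 0.0325 below it within the sets (p = 0.488, exact permutation).

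MPT5 (YGL178W, chromosome VII, 167352 to 170571, plus strand) has an intron of 640 bases, and 348 of them are annotated as YGL177W, an open reading frame on the same strand. Reads inside YGL177W overlap both genes and were counted for neither in the whole-gene files, so they are missing from the intron reads of MPT5. The exon files hold a median of 127 reads for YGL177W per library at 0 h, beside a median of 42.5 intron reads for MPT5. The splice ratio of MPT5 at 0 h, 0.924 ± 0.0173 (SD, n = 24), became 0.834 ± 0.0380 over the 292 intron bases free of YGL177W and 0.699 with the reads of YGL177W added to those of the intron. At 6 h the last of these values was 0.724. Among the 24 genes only MPT5 has a same-strand gene inside its intron, and the genes annotated over introns of VMA9 and HAC1 lie on the opposite strand, which strand-specific counting keeps apart.

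**Figure D4:**
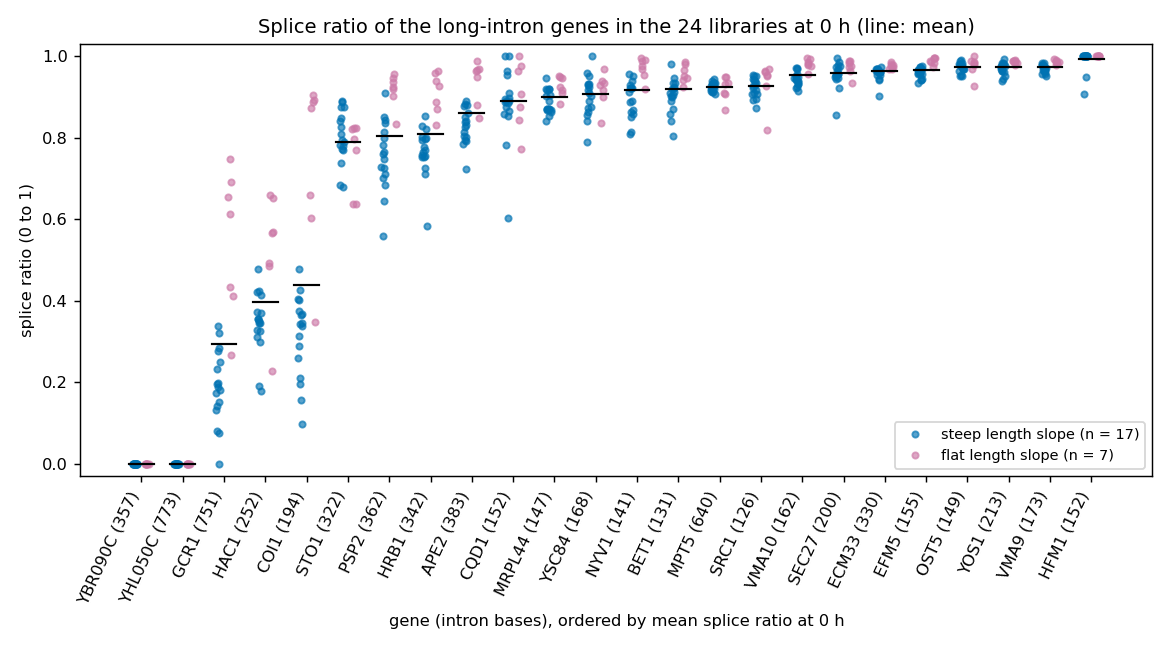
Splice ratio (0 to 1) of the 24 genes in the 24 libraries at 0 h, ordered by the mean (black line), with the bases of intron in brackets and the libraries coloured by length slope (7 flat, 17 steep). GCR1 and COI1 lie at means of 0.545 and 0.739 in the flat libraries and of 0.189 and 0.316 in the steep ones, and 13 genes have a mean above 0.9. These 13 include MPT5, whose intron reads are incomplete.

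In 20 of the 24 genes the mean splice ratio at 0 h was higher in the flat libraries than in the steep ones, beside 207 of 223 intron genes. The median difference was 0.02 in the 24 genes and 0.0232 in the 223. Next to COI1, GCR1 and HAC1, it was largest in PSP2 (0.917 and 0.757), HRB1 (0.911 and 0.768) and APE2 (0.938 and 0.829). STO1 went the other way, with 0.758 in the flat libraries and 0.803 in the steep ones, as did MPT5 with 0.921 and 0.925. The sets were defined from the data, their part in the time course was not tested beyond the values within sets, and no test was made between them.

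Over time, the splice ratios of the 24 genes showed no call. The test for each gene was an exact permutation of 6 libraries against 24 (two-sided), with Benjamini-Hochberg adjustment over the 223 intron genes that passed the count minimum. At 6 h 0 of the 24 had an unadjusted p under 0.05 in this test, beside 53 of the 223 intron genes. After adjustment 0 of the 24 passed, and 4.48% of all intron genes did. That background of 10 genes changed with single libraries, to 46 without replicate 2 at 6 h, 23 without replicate 4, 6 without replicate 6 and 2 without replicate 1, 3 or 5, while the 24 genes gave 0 each time. At 4 h 0 passed and 0.448% of all did, and at 2 h 0 passed and 0.0% of all did. The median differences of the 24 genes from 0 h were -0.0076 at 2 h, -0.0135 at 4 h and -0.00485 at 6 h, beside -0.0141, -0.0126 and -0.00949 over the 223 genes. Single libraries moved these medians. That of the 24 genes at 4 h was -0.000601 without replicate 3. At 6 h it was 0.00122 without replicate 3, -0.000899 without replicate 1, -0.00302 without replicate 6, -0.00859 without replicate 2 and -0.00896 without replicate 4.

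With labels permuted only within the library sets, 31.4% of the intron genes passed at 6 h and 1.35% at 4 h, and 0 of the 24 genes did at either time. At 6 h the smallest p among the 24 in that test was that of VMA10, with a difference of -0.0167 (p = 0.0405, adjusted p = 0.106, exact permutation). Of the 70 genes called in that test, 66 had a lower ratio at 6 h. YBR090C could not have passed, since its ratio was 0 in every library, and YHL050C was above 0 in a single library only. For the other 22 genes a missing call does not show that the ratio stayed the same.

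The 2 smallest unadjusted p-values in the test over all libraries were those of APE2 at 4 h and SEC27 at 2 h. APE2 had splice ratios of 0.741, 0.796, 0.628, 0.823, 0.835 and 0.83 in replicates 1 to 6 at 4 h, against a range of 0.723 to 0.989 with a median of 0.850 at 0 h. Only replicate 3 was below every library at 0 h. The difference was -0.0853 (p = 0.0132, adjusted p = 0.157, exact permutation test), and -0.0536 within the sets (p = 0.0474, adjusted p = 0.471, exact permutation). Without replicate 3 at 4 h it was -0.0559. SEC27 had 0.982, 0.896, 0.97, 0.762, 0.951 and 0.91 at 2 h, against a range of 0.856 to 0.995 at 0 h, and differed by -0.0478 (p = 0.026, adjusted p = 0.213, exact permutation test). APE2 thus had a higher gene count at 4 h with a splice ratio whose difference did not pass.

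**Figure D5:**
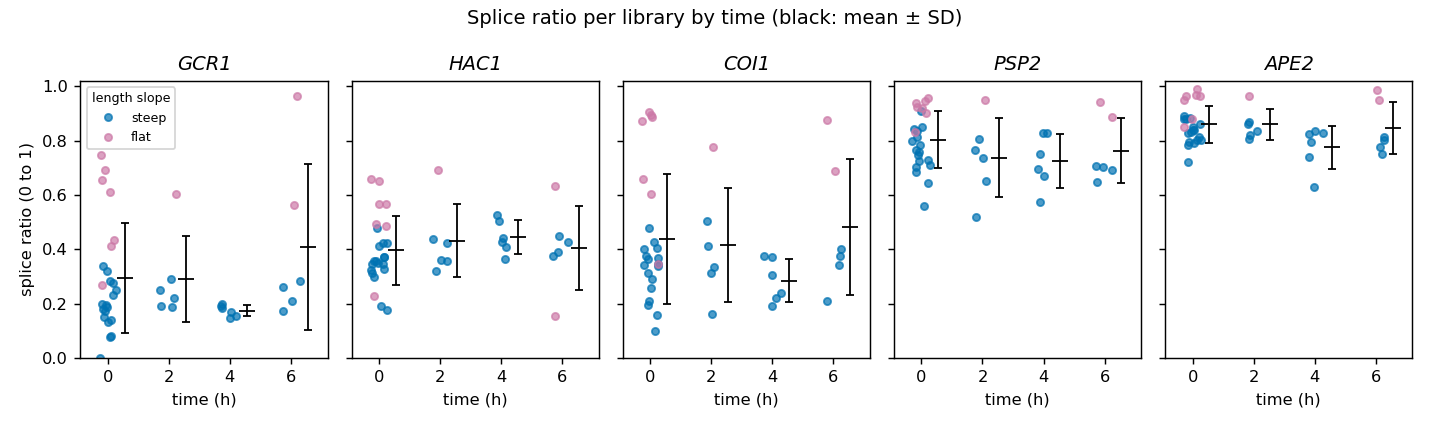
Splice ratio (0 to 1) in each library at 0 h (n = 24) and at 2, 4 and 6 h (n = 6 each) for GCR1, HAC1, COI1, PSP2 and APE2, coloured by the length slope of the library, with the mean and SD in black. The flat libraries hold the highest values of GCR1 and COI1 at 2 h and 6 h, and the 4 h libraries, all steep, have means of 0.173 and 0.283.

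For the genes that rose, the splice ratio at 6 h lay within 1 SD of that at 0 h. It was 0.888 ± 0.0563 (SD, n = 6) against 0.907 ± 0.0476 in YSC84, 0.482 ± 0.249 against 0.439 ± 0.240 in COI1, 0.847 ± 0.0973 against 0.861 ± 0.0678 in APE2, 0.763 ± 0.121 against 0.803 ± 0.105 in PSP2 and 0.942 ± 0.0349 against 0.927 ± 0.0336 in SRC1. EFM5, which fell, had 0.956 ± 0.0398 against 0.967 ± 0.0174. The exact permutation p-values of these 6 differences were between 0.292 and 0.705, and the largest of the differences was 0.0428 in COI1. The SDs above span flat and steep libraries. In the steep libraries alone, means at 6 h and 0 h were 0.860 and 0.903 in YSC84, 0.786 and 0.829 in APE2. They were 0.688 and 0.757 in PSP2, 0.921 and 0.923 in SRC1, 0.940 and 0.959 in EFM5 and 0.332 and 0.316 in COI1. The fits on exon counts alone, in which 22 of the 24 genes passed the count minimum, called the same 6 genes at 6 h and the same 6 at 4 h. Of all genes tested in those fits, 44.6% and 35.3% were called.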

How the data were processed

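The authors counted stranded, polyA-selected libraries with featureCounts (version 2.0.3 in the headers, with an R64 annotation). The 84 files hold raw counts per whole gene or per gene's exons, deposited without normalization. The submitters' notes name STAR, StringTie and R64. Each mate was counted, and reads on several places or genes were not. The methods name a ComBat-seq adjustment that the file headers do not show.

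Whole-gene counts of all 42 libraries were fitted with edgeR 4.0.16 (R 4.3.3, limma 3.58.1; glmQLFit and glmQLFTest, TMM, at least 75 counts in every library), with DESeq2 1.42.0 as an alternative. Splice ratios were compared by exact permutation in Python 3.11.15 (numpy 2.4.6, pandas 2.3.3, matplotlib 3.10.9). Scaled counts are counts divided by the library total and multiplied by the mean total, 13900104. Both tests were checked on simulated data without flat and steep sets, so the checks do not cover that structure. In 321 pairs of replicates, no library repeated another within sampling noise. The members and the gene lists were chosen with earlier results of these data known. All 24 genes are named. Values per library are given for genes past the expression test at 4 h or 6 h and for the 3 lowest splice ratios, and splice ratios per library of HAC1, COI1, APE2 (4 h) and SEC27 (2 h), and the MPT5 paragraph, were added after their values were seen, APE2 and SEC27 for their small p-values. Alternatives were other scalings, filters and libraries, the library set, exon counts, a replicate block and leaving out single libraries.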

Additional observations from a re-analysis of the deposited data

Results flagged for a closer look

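In groups of 6 libraries, a library far from the nearest of the other 5 relative to the whole range was noted. This held in 21 of 139 groups of scaled gene counts and splice ratios of the 24 genes. The usual rate of about 1 in 20 is for independent normal values. The groups share libraries and the ratios are bounded, so that rate is no yardstick here. Replicate 1 at 2 h, the flat library of that time, stood apart in 9 of the 21 groups. Its scaled gene counts were the lowest for ECM33 (13362), OST5 (292.47), STO1 (2098.7), MPT5 (1144.7), CQD1 (224.9) and YHL050C (167.41) and the highest for VMA10 (4828.8). Its splice ratios were the highest for HAC1 (0.69171) and GCR1 (0.6035).

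Replicate 3 at 4 h, a steep library, had the lowest splice ratio of that time in 16 of the 24 genes, and stood apart by this measure in 6 of them, with 0.85758 for ECM33, 0.887 for VMA10, 0.90995 for VMA9, 0.62109 for HRB1, 0.79189 for NYV1 and 0.82142 for SEC27. Replicate 2 at 6 h, a flat library, had the highest scaled gene counts for VMA10 (8872.2) and HAC1 (15615) and the only splice ratio above 0 for YHL050C (0.0048842). GCR1 had 5043.8 scaled gene counts in replicate 5 at 2 h, above the other libraries of that time. HFM1 had splice ratios of 0.955 in replicate 6 at 2 h and 0.92412 in replicate 5 at 4 h, where the others were at 1.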

How the results depend on the processing

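Of 168 log2 changes of the called genes under alternatives, 142 kept direction and call, 26 kept the direction and lost the call, and 0 reversed. The number of the 24 genes called at 6 h, 6 in the main analysis, was 3 against the 6 libraries at 0 h with 30C in the header, 10 with the library set as a term and 11 (4 lower, 7 higher) in the steep libraries alone. All genes moved too, from 44.6% called to 26.5%, 63.0% and 60.6%. At 4 h, also 6, it was 1 against the 30C libraries, where the share of all genes moved from 35.2% to 5.44%. At 2 h it was 0 and became 1 in the steep libraries, where the share of all genes moved from 0.0835% to 2.53%. The analyses of steep or flat libraries alone were chosen after seeing the data. Leaving out 1 library gave 5 to 8 calls at 6 h and 4 to 7 at 4 h. The shares of all genes then ran from 37.8% to 48.7% and from 22.4% to 35.3%. The replicate numbers do not pair the libraries (correlations from -0.73 to 0.793), and with them as a replicate block, 4 genes were called at 6 h and 0 at 4 h, beside 26.8% and 5.6% of all genes. YSC84 and PSP2 passed at 6 h in all 14 alternatives. Splice ratios gave 0 calls under each alternative run, also with 1 library left out (0 to 0). For the replicate block and the flat libraries alone this says nothing, since the smallest p they allow is 0.0312 and 0.0278 before adjustment. Against the 6 libraries at 0 h with 30C in the header it says little. The 924 assignments of that permutation test allow no p under 0.00108 before adjustment, so no gene could pass on its own. Beyond single libraries, few intron reads limit the ratios of HFM1 and CQD1, and reads shared with other genes or places those of MPT5, YBR090C and YHL050C.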
